A study of Mus musculus with 18 samples.

Results

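The genes described here are Myc and a set of genes for building ribosomes, 33 in all, followed across 5 sorted fractions of a mouse lymphoma and across normal blood progenitors. The set is a written list of symbols, and each gene is read from its brightest probe set by the mean over all 18 arrays, so signal level, but no difference between groups, enters its rule. A probe set that carries 1 gene symbol was found for 30 of the 33 listed genes, out of 22180 genes measured in this way. Fbl, Tsr1 and Mrto4 lie only on probe sets that several genes share and are given apart from the others.

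The lymphoma fractions came from lymphomas of the thymus of moribund mice that carried an Lck-Cre transgene. These mice had been sublethally irradiated and given bone marrow infected with a retrovirus, so that early T cells made NPM-ALK, a fusion kinase known from anaplastic large cell lymphoma. The design text names 3 lymphomas, sorted by surface markers into the fraction labelled CLP (for common lymphoid progenitor) and 4 fractions named after the double-negative thymocyte stages, DN1 to DN4, with 3 arrays each. The reference cells were LSK cells, stem and progenitor cells without lineage markers and with SCA1 and KIT that were sorted from bone marrow of 18 months old wild type mice on 3 arrays. Lck-Cre acts in the T lineage, and in such a model the transplanted mouse keeps blood cells of its own. The labels do not say that arrays of 1 group came from separate mice, so the p values measure the spread between these arrays, part of which may be technical. Lymphoma and LSK samples also differ in cell type and stage, as T lineage cells against stem and progenitor cells. They differ in tissue, transplantation and irradiation as well, and none of these can be told apart from the presence of NPM-ALK. The sample labels give no age for the lymphoma mice, so their age may differ too and cannot be told apart either. The description field of 12 arrays names a dose of 4 Gy and that field names other genotypes than the title and the genotype field, so groups follow the titles. These arrays are those of DN1, DN2 and DN3, CLP replicates 1 and 2 and LSK replicate 3. For DN4, CLP replicate 3 and LSK replicates 1 and 2 that field gives no dose, which does not say that they were not irradiated. Results without LSK replicate 3 are given where they change.

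MYC is a transcription factor that pairs with MAX and binds the E-box sequence CACGTG, and many genes for making ribosomes are among its known targets. Ribosome assembly starts in the nucleolus, where RNA polymerase I makes a long precursor RNA, small nucleolar RNA-protein particles (snoRNPs) modify it, and a series of factors cut, fold and package it into the small and large subunits. In the thymus, MYC acts with Notch and pre-T cell receptor signals in the expansion of early thymocytes, and in blood stem and progenitor cells it takes part in the balance of self-renewal and differentiation.

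The start regions of these genes are shown first because MYC binds its targets through short DNA words. RefSeq windows (GRCm38.p6) from 250 bases before to 50 bases after the transcription start were found for 25 of the 30 measured genes. Myc, Npm1, Bop1, Rrs1 and Rrp12 have no window in that table. The E-box CACGTG, which reads the same on both strands, lay in the windows of 4 of these 25 genes (16%), against 9.19% of the tested genes with a window and 8.09% of all genes with a window. The 4 stretches around it are printed with the E-box in capitals, each read along the strand of its gene.
Nop2, chr6:125131811-125131840, plus strand: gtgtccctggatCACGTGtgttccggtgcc
Pes1, chr11:3963965-3963994, plus strand: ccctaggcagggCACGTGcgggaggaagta
Utp20, chr10:88826765-88826794, minus strand: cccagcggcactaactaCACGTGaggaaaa
Wdr43, chr17:71616220-71616249, plus strand: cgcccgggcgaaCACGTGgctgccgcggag

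A second word, CCGGAAG on either strand (CTTCCGG when read on the other), is a core that ETS family factors bind. It was searched in the same windows and was present in 9 of the 25 genes (36%), against 12.7% of the tested genes and 9.93% of all genes with a window. It does not overlap the E-box in letters. The windows of these genes were also richer in G and C, with a median of 59.7% against 56.7% for windows of tested genes and 52.7% for all windows, and the part of base composition in these shares was not tested. For 5 of these genes the bases just before the start are printed with this word in capitals, since they stand for the snoRNPs, the nucleolus and both subunits.
Gar1, chr3:129831397-129831456, minus strand: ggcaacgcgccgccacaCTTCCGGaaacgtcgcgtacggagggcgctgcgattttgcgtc
Nhp2, chr11:51619713-51619772, plus strand: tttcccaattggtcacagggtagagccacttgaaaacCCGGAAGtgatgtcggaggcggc
Nolc1, chr19:46075787-46075846, plus strand: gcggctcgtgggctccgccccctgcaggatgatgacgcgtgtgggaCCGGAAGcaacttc
Heatr1, chr13:12395315-12395374, plus strand: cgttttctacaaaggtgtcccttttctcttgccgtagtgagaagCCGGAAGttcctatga
Wdr74, chr19:8735779-8735838, plus strand: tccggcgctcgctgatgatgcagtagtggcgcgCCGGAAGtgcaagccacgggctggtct

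The other 4 genes with this word are Nip7, Noc2l, Nop2 and Ppan. A match is a string of letters in a window and says nothing here about binding.

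Values are log2 RMA signals, so 1 unit is a doubling, and they are relative within an array set: a change shared by all genes would not be seen. The 95th percentile of 1088 olfactory receptor genes, which serve as a gauge of background, lay between 5.35 and 5.70 over the 18 arrays. The lowest value of any of the 30 genes on any array was 6.35, above that range. Pairs of arrays of 1 group correlated at 0.968 to 0.993 across genes, lowest within CLP. The 7 T cell markers averaged 10.88 to 11.41 on the lymphoma arrays and 5.96 to 6.13 on the LSK arrays. The 7 LSK markers averaged 5.16 to 5.79 on the lymphoma arrays and 9.50 to 9.59 on the LSK arrays. Kit, which is on the LSK list, did not separate DN1 and DN2 from LSK cells. It averaged 10.77 in DN1 and 10.68 in DN2, against 10.90 in LSK cells. In CLP, DN3 and DN4 its means were lower, from 8.06 in DN3 to 9.43 in CLP. Il2ra, which encodes the sort marker CD25, averaged 11.81 in DN2 and 12.02 in DN3, and 8.31, 9.04 and 8.71 in CLP, DN1 and DN4, so it was high in the fractions that the stage names call CD25-positive. The fraction labelled CLP carried T cell markers at 11.03 to 11.41, within the range of the DN fractions or above it, and Il7r, which encodes a defining receptor of such progenitors, was at 7.99 ± 0.90 there (SD, n = 3), below its mean in each DN fraction. Xist was at 10.74 and 10.00 on LSK arrays 2 and 3, against 3.55 on LSK array 1 and 3.81 to 5.03 on the lymphoma arrays, so the LSK arrays differ in sex-linked RNA. Eif2s3y, a gene of the Y chromosome, was at 8.42, 7.43 and 4.69 on LSK arrays 1, 2 and 3 and at 8.62 to 9.44 on the lymphoma arrays. LSK array 2 thus carried both RNAs, and no label says whether an LSK sample pooled cells of several mice.

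Myc RNA (chromosome 15, probe set 17311846) was lower in every lymphoma fraction than in LSK cells. Its signal was 10.65, 10.45 and 10.32 in CLP, 9.66, 10.42 and 9.24 in DN1, and 10.15, 10.59 and 10.24 in DN2. It was 10.25, 10.54 and 9.95 in DN3, 10.53, 10.38 and 10.12 in DN4, and 11.27, 11.30 and 11.09 in LSK cells. All 15 lymphoma arrays lay below all 3 LSK arrays, which was the case for 10.4% of all genes. Over the 3 replicate numbers the lymphoma mean was 10.23 ± 0.25, against 11.22 ± 0.11 in LSK cells (SD, n = 3 each), a difference of -0.99 (SE 0.14, 95% interval -1.29 to -0.68) or 1.98-fold lower, with a limma adjusted p of 0.00044. In sorted bulk samples such as these, fewer Myc-expressing cells and less Myc RNA per cell cannot be told apart. The call held in all 14 other settings tried, with differences between -1.11 and -0.86.

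**Figure D1:**
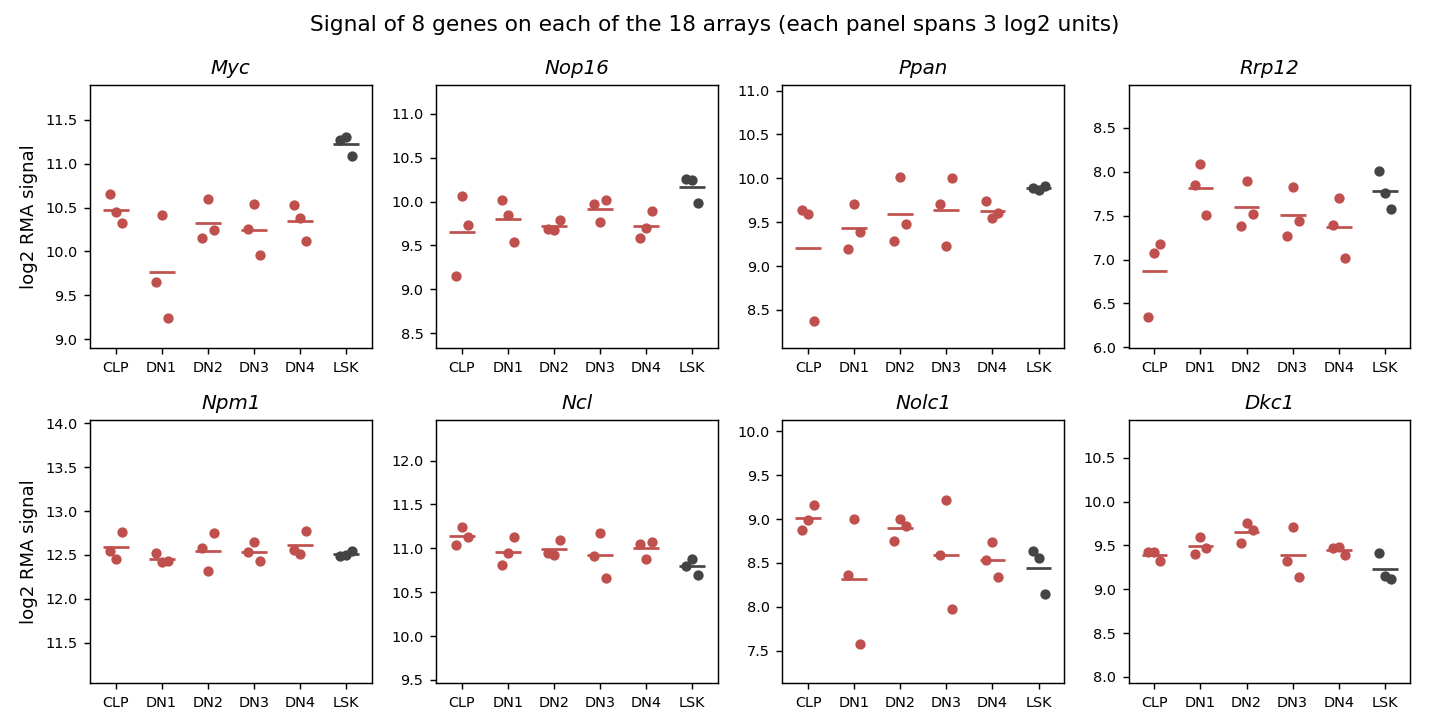
Log2 RMA signal (vertical axis) of 8 genes on each array, with the 5 lymphoma fractions in red on the left of each panel and LSK cells in grey on the right. Points are arrays and short lines are group means; all panels span 3 log2 units. Myc lies between 9.24 and 10.65 in the lymphoma and between 11.09 and 11.30 in LSK cells, while Npm1 and Ncl overlap between lymphoma and LSK.

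The genes for building ribosomes did not follow Myc as a group. In the comparison of the lymphoma (the 5 fraction arrays averaged within a replicate number, n = 3) with LSK cells (n = 3), 3 of the 30 genes passed limma's adjusted p of 0.05 over all 22180 genes, 0 higher and 3 lower, which is 10% of the set. Among all genes 29% passed, 13.1% higher and 15.8% lower. The 3 were Myc, Nop16 and Ppan. The count was 1 without lymphoma replicate 1 (4634 genes in all) or 3 (4958). It was 6 without LSK replicate 3 (6825), where Nop56, Wdr43 and Rrp12 joined, against 6425 genes in all with all arrays. The median difference of the 30 genes was 0.06 and that of all genes 0.05, with 20 of the 30 above zero and 10 below it. None of the 30 differed by over 1 log2 unit, as did 8.84% of all genes. For each of the 27 genes not called, the 95% interval of the difference stayed within 1 log2 unit on both sides, and for 21 of them it stayed within 0.5.

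**Figure D2:**
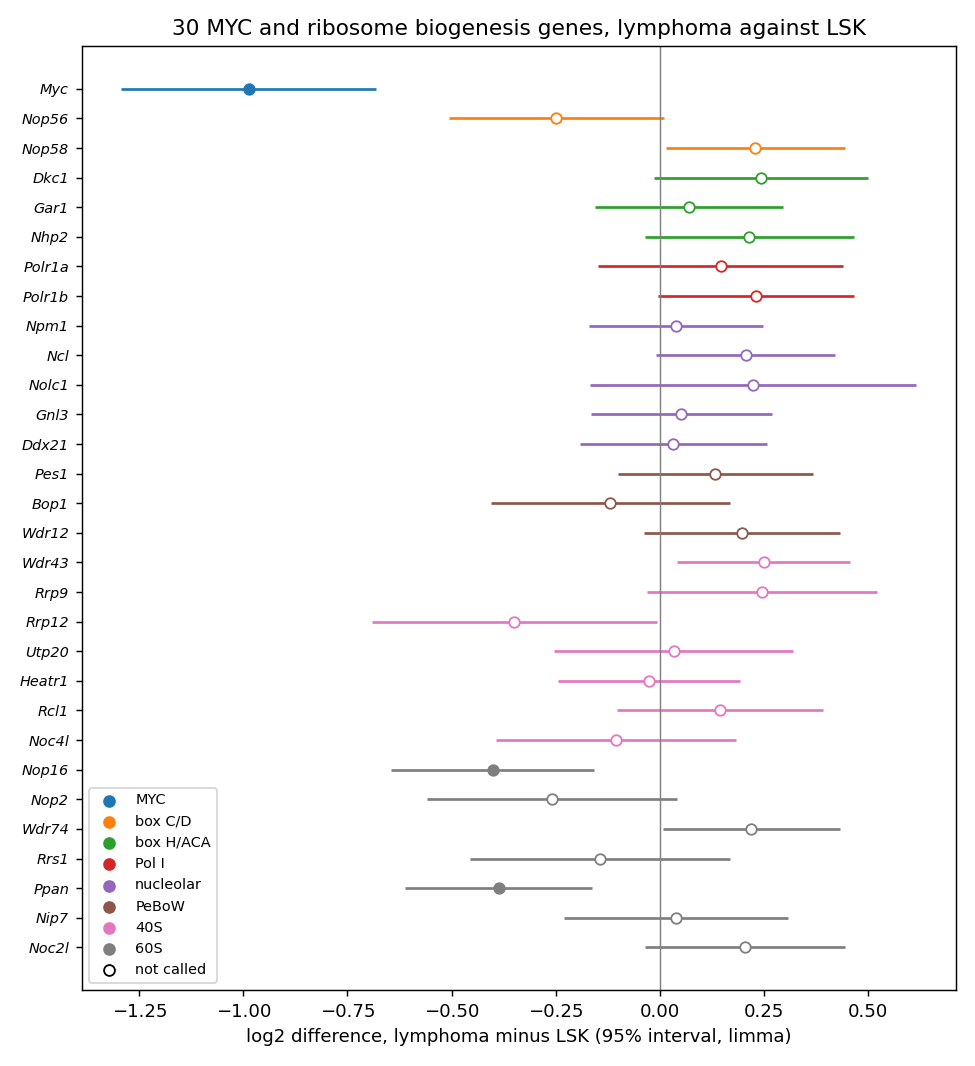
Log2 difference of the lymphoma minus LSK cells (horizontal axis) for the 30 genes, in order of role and coloured by role (40S and 60S are the factors for the small and the large subunit). Points are limma estimates and lines their 95% intervals, with filled points for the 3 genes called. Myc lies apart at -0.99, Nop16 and Ppan lie near -0.40 and -0.39, and the others lie between -0.35 and 0.25.

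Among the core proteins of the snoRNPs, no gene passed the test between lymphoma and LSK. Box C/D particles guide the methylation of ribosomal RNA, and Nop56 and Nop58 are the scaffold proteins around their methyltransferase Fbl. Nop56 had 10.03, 10.68 and 10.88 as the lowest, median and highest of the 15 lymphoma arrays, against 10.96, 11.05 and 10.73 in LSK cells, a difference of -0.25 (SE 0.11, adjusted p = 0.14, and -0.34 with 0.0417 without LSK replicate 3). Nop58 had 9.67, 10.18 and 10.45, against 9.97, 9.90 and 10.00 in LSK cells, a difference of 0.23 (SE 0.10, adjusted p = 0.11). Both overlapped LSK. The sign of Nop56 differed between its probe sets. One of lower signal, 17376272, was 0.69 higher in the lymphoma (limma adjusted p = 0.0222 over all 41345 probe sets). It spanned 5.74 to 6.33 in LSK cells, near the background gauge given above, which reached 5.70. Another one, 17376274, with a mean of 8.99 in LSK cells, differed by -0.48 (limma adjusted p = 0.0493). Fbl shares its probe set with Tulp4, and that probe set differed by 0.03 (SE 0.13).

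Box H/ACA particles turn uridines of ribosomal RNA into pseudouridine, and Dkc1 is their catalytic subunit, with Gar1 and Nhp2 as partners. Dkc1 had 9.14, 9.47 and 9.75 as the lowest, median and highest lymphoma values, against 9.42, 9.15 and 9.12 in LSK cells, a difference of 0.24 (adjusted p = 0.15). Dkc1 lies on the X chromosome, and its highest LSK value was on array 1, the LSK array with Xist at 3.55. Whether sex-linked RNA bears on that difference was not tested. Gar1 spanned 7.32 to 8.50 in the lymphoma and 7.78 to 8.01 in LSK cells, and Nhp2 spanned 8.26 to 9.42 and 8.62 to 8.91, with differences of 0.07 and 0.22.

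The RNA polymerase I subunits Polr1a, the largest catalytic subunit, and Polr1b, the second largest, had differences of 0.15 and 0.23. Polr1b had 7.82, 8.68 and 8.98 as the lowest, median and highest lymphoma values, against 8.55, 8.28 and 8.38 in LSK cells (adjusted p = 0.13). The lowest of these came from CLP replicate 2, and every other lymphoma array stood at 8.48 or above.

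None of the 5 genes for nucleolar proteins was called between lymphoma and LSK. Npm1, a chaperone of ribosome assembly whose human counterpart gives its amino-terminal part to NPM-ALK, had 12.32, 12.54 and 12.78 as the lowest, median and highest lymphoma values, against 12.49, 12.50 and 12.54 in LSK cells. The lymphoma range enclosed the LSK range, and the difference was 0.04 (95% interval -0.17 to 0.25). A second Npm1 probe set of lower signal, 17261550, differed by 0.25 (95% interval -0.21 to 0.72) and was not called over all 41345 probe sets. No source used here gives the position of either probe set relative to the part that the fusion carries. Ncl, which encodes nucleolin, had 10.66, 11.04 and 11.24, against 10.80, 10.88 and 10.70 in LSK cells, a difference of 0.21 (SE 0.10, adjusted p = 0.14). The nucleolar GTPase Gnl3, known from stem cells, and the RNA helicase Ddx21 differed by 0.05 and 0.03. Another Ddx21 probe set of lower signal, 17233794, differed by 0.35 (limma adjusted p = 0.108 over all 41345 probe sets).

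Nolc1, a snoRNP chaperone that shuttles between nucleolus and Cajal bodies, was the most uneven gene of this group. Its signal was 8.88, 8.995 and 9.16 in CLP, 8.36, 9.003 and 7.58 in DN1, and 8.76, 9.01 and 8.92 in DN2. It was 8.59, 9.22 and 7.98 in DN3, 8.54, 8.74 and 8.34 in DN4, and 8.63, 8.55 and 8.15 in LSK cells. Replicate 3 was the lowest in DN1, DN3 and DN4 and the highest in CLP. The difference between lymphoma and LSK was 0.22 with an interval of -0.17 to 0.62.

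Pes1, Bop1 and Wdr12 form the PeBoW complex, which acts in the maturation of the large subunit. They differed by 0.13, -0.12 and 0.20 between lymphoma and LSK, and none was called. Bop1 spanned 8.96 to 9.93 in the lymphoma and 9.56 to 9.72 in LSK cells, so the lymphoma arrays lay on both sides of LSK.

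The factors for the small subunit held both the highest positive estimate of the set and the lowest one apart from the 3 called genes. Wdr43, a scaffold protein of early precursor processing, had 9.17, 9.56 and 9.96 as its lowest, median and highest lymphoma values, against 9.24, 9.27 and 9.38 in LSK cells, a difference of 0.25 (SE 0.09, adjusted p = 0.071). It passed without the CLP arrays (0.29, adjusted p = 0.040) and without LSK replicate 3 (0.29, adjusted p = 0.048). Rrp12, known in yeast for the export of both subunits, had 6.35, 7.43 and 8.09, against 8.01, 7.76 and 7.58 in LSK cells, a difference of -0.35 (SE 0.15, adjusted p = 0.12). It passed without LSK replicate 3 (-0.45, adjusted p = 0.0498) and without lymphoma replicate 2 (-0.49, adjusted p = 0.0467). Rrp9, a protein that binds the U3 snoRNA, differed by 0.25 and passed without LSK replicate 1 (0.36, adjusted p = 0.0405). Utp20, Heatr1, Rcl1 and Noc4l differed by 0.03, -0.03, 0.15 and -0.10. The probe set that Tsr1 shares with Srr differed by 0.08.

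Of the factors for the large subunit, Nop16 and Ppan fell. Nop16 (chromosome 13, probe set 17292712), a nucleolar protein of large subunit assembly, had 9.15, 10.07 and 9.74 in CLP, 10.01, 9.85 and 9.54 in DN1, and 9.69, 9.67 and 9.79 in DN2. It had 9.98, 9.76 and 10.01 in DN3, 9.58, 9.70 and 9.89 in DN4, and 10.25, 10.25 and 9.99 in LSK cells. The lymphoma arrays lay below LSK arrays 1 and 2 and overlapped with LSK array 3. The difference was -0.40 (SE 0.11, 1.32-fold lower, adjusted p = 0.0206). The call held in 9 of 14 other settings and was lost without any 1 of lymphoma replicates 1, 2 and 3 or LSK replicates 1 and 2, with adjusted p between 0.0549 and 0.0964.

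Ppan (chromosome 9, probe set 17515058), a factor of large subunit maturation, had 9.64, 9.59 and 8.37 in CLP, 9.19, 9.71 and 9.39 in DN1, and 9.29, 10.01 and 9.48 in DN2. It had 9.71, 9.22 and 10.00 in DN3, 9.74, 9.55 and 9.61 in DN4, and 9.89, 9.87 and 9.91 in LSK cells. DN2 replicate 2 and DN3 replicate 3 lay above LSK and the other lymphoma arrays below it. The difference was -0.39 (SE 0.10, 1.31-fold lower, adjusted p = 0.0164). It was not called without lymphoma replicate 1 (adjusted p = 0.0602) or 3 (0.0723), with LSK array 1 alone (0.0519), where that array is assumed to vary like the lymphoma values, or with all 18 arrays in 1 model (0.186), where the spread is that among fractions. In these 4 fits the difference was -0.39, -0.32, -0.38 and -0.39. A second probe set of Ppan differed by -0.31 and was not called.

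The bases before the starts of the 2 large subunit genes that fell are given for comparison with Nop2, whose window holds both words, in capitals.
Nop16, chr13:54590075-54590324, minus strand: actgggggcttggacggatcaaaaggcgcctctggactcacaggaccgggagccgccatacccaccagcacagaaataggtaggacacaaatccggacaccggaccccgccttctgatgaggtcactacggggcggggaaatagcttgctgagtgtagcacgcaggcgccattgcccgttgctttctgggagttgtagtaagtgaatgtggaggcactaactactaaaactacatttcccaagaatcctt
Ppan, chr9:20887925-20888174, plus strand: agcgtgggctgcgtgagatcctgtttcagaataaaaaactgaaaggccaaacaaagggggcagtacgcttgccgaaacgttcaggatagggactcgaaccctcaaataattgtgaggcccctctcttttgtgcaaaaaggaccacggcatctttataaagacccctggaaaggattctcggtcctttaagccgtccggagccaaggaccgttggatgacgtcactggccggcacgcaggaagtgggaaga
Nop2, chr6:125131633-125131882, plus strand: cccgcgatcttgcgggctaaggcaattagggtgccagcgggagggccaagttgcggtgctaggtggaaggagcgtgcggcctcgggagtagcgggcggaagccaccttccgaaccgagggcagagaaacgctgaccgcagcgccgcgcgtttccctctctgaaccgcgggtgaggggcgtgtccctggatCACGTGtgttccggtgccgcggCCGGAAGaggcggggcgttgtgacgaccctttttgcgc

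Neither word lies in the printed bases of Nop16 or Ppan, and the CCGGAAG of Ppan lies after its start. Nop2, a methyltransferase of the large ribosomal RNA, had 9.48, 9.96 and 10.35 as its lowest, median and highest lymphoma values, against 10.38, 10.13 and 10.15 in LSK cells, a difference of -0.26 (adjusted p = 0.18). The other genes with an E-box in their window, Pes1, Utp20 and Wdr43, differed by 0.13, 0.03 and 0.25. None of the 4 genes with an E-box was called, where 29% of all genes were, and 4 genes are too few to read anything from this.

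The remaining factors for the large subunit were not called between lymphoma and LSK. Wdr74 differed by 0.22, Noc2l by 0.21, Nip7 by 0.04 and Rrs1 by -0.14. Noc2l, which takes part in the movement of precursors out of the nucleolus, spanned 9.82 to 10.23 in the lymphoma and 9.72 to 9.99 in LSK cells. The probe set that Mrto4 shares with its pseudogenes differed by 0.27 and was not called over all 41345 probe sets.

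Each fraction was then set against LSK cells alone, 3 arrays against 3, and these 5 comparisons share their LSK arrays. Myc was lower in each. The difference was -0.74 for CLP (SE 0.15, adjusted p = 0.0102), -1.45 for DN1 (SE 0.25, 0.0016), -0.89 for DN2 (SE 0.14, 0.00061), -0.97 for DN3 (SE 0.16, 0.00093) and -0.88 for DN4 (SE 0.14, 0.0006). The CLP call was lost without LSK replicate 1 (-0.72, adjusted p = 0.0519) and without LSK replicate 2 (-0.70, 0.0529). Of the 30 genes, 2 passed in CLP against 17.7% of all genes, 1 in DN1 against 19.7%, 4 in DN2 against 25.4%, 2 in DN3 against 24.5% and 2 in DN4 against 26.6%. These counts are small and move with single arrays, and so do the counts of all genes called. With all arrays, 3928, 4378, 5638, 5443 and 5908 genes in all were called in CLP, DN1, DN2, DN3 and DN4. For CLP the count was 4 without CLP replicate 1 (4598 genes in all), with Nolc1 (0.63) and Wdr12 (0.51) added. It was 0 without LSK replicate 1 or 2 (2559 and 2667) and 1 without LSK replicate 3 (2739). For DN1 it was 2 without DN1 replicate 1 (3658), with Nop56 (-0.66) added, and 2 without DN1 replicate 2 (3809), with Ppan (-0.60) added. For DN2 it was 2 without any 1 of the DN2 arrays (4572 to 4667) or LSK replicate 3 (5383) and 1 without LSK replicate 2 (5039). For DN3 it was 1 without DN3 replicate 1 (4154) or LSK replicate 2 (4619) or 3 (4860) and 5 without DN3 replicate 2 (5388). For DN4 it was 1 without DN4 replicate 1 (5029) or LSK replicate 1 (4947) or 2 (5323).

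DN2 had the most genes above LSK. Dkc1 had 9.52, 9.75 and 9.67 in DN2, against 9.42, 9.15 and 9.12 in LSK cells, a difference of 0.42 (SE 0.13, adjusted p = 0.0340). Nolc1 rose by 0.45 (SE 0.15, adjusted p = 0.0464), and Nop16 fell by 0.44 (SE 0.12, adjusted p = 0.0211). In DN2, 13 of the 30 genes had all 3 arrays above all 3 LSK arrays, against 20.5% of all genes, and 3 had all below, against 19.1%. The median difference of the 30 genes was 0.13 in DN2, against 0.04 for all genes. The calls of Dkc1 and Nolc1 in DN2 lay near the threshold: without DN2 replicate 2 the adjusted p was 0.12 for Dkc1 and 0.15 for Nolc1, and without LSK replicate 3 it was 0.092 for Dkc1 and 0.145 for Nolc1. Both were also lost without DN2 replicate 3 or LSK replicate 2, and Nolc1 without DN2 replicate 1, with adjusted p between 0.0568 and 0.122. Over these fits the difference was 0.36 to 0.41 for Dkc1 and 0.30 to 0.52 for Nolc1, each against LSK. The call of Nop16 was lost without DN2 replicate 1 (adjusted p = 0.0667) or 2 (0.0728) and without LSK replicate 1 (0.0724) or 2 (0.0701).

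In the other fractions the calls beside Myc were 3. Rrp12 fell in CLP, with 6.35, 7.07 and 7.18 in CLP against 8.01, 7.76 and 7.58 in LSK cells, a difference of -0.91 (SE 0.24, adjusted p = 0.0281). That call was lost without LSK replicate 1 (0.121), 2 (0.0878) or 3 (0.0539). Wdr74, a factor that works with the remodelling ATPase Nvl in large subunit maturation, rose in DN3, with 9.39, 9.16 and 9.10 in DN3 against 8.83, 8.70 and 8.71 in LSK cells, a difference of 0.47 (SE 0.13, adjusted p = 0.0226). That call was lost without DN3 replicate 1 (0.104) and without LSK replicate 2 (0.0715) or 3 (0.0570). Nop16 fell by 0.44 in DN4 (SE 0.14, adjusted p = 0.0325), which was lost without DN4 replicate 1 (0.114) or 2 (0.0956) and without LSK replicate 1 (0.104) or 2 (0.0969). The genes that joined in DN3 without DN3 replicate 2 were Nhp2 (0.55), Bop1 (-0.60) and Nop2 (-0.65). The genes with all 3 arrays above LSK and all below LSK numbered 3 and 3 in CLP (19.2% and 17.5% of all genes), 4 and 3 in DN1 (16.3% and 18.8%), 6 and 2 in DN3 (20.9% and 18.1%), and 4 and 5 in DN4 (21.9% and 20%).

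Among the 5 lymphoma fractions, tested in 1 model of the 15 arrays without a term for the replicate number, no gene of the set passed the test. In limma's F test the count was 0 of 30, against 7.88% of all genes, and 5 of the 30 had an unadjusted p under 0.05. These were Rrp12, Utp20, Gar1, Ddx21 and Polr1a, with adjusted p from 0.11 to 0.24. The share of all genes at that unadjusted threshold is not given here, so the 5 are not read as many or few. Without CLP replicate 1, Gar1 passed (adjusted p = 0.0373). With the replicate number as a block, which no label says pairs the arrays, Rrp12 passed (limma adjusted p = 0.0241). The spread between the highest and the lowest fraction mean had a median of 0.35 over the 30 genes, against 0.32 over all genes. Myc was highest in CLP at 10.48 ± 0.16, followed by DN4 at 10.34 ± 0.21, DN2 at 10.33 ± 0.23, DN3 at 10.25 ± 0.29 and DN1 at 9.77 ± 0.60 (SD, n = 3 each). No neighbours in that order differed beyond their spread. The F test for Myc, which asks for any difference among the 5 fractions and not for one between neighbours, gave an adjusted p of 0.34. DN1 replicate 2, at 10.42, stood apart from the other DN1 arrays at 9.66 and 9.24. Without it, Myc was called in the F test (adjusted p = 0.0298), in DN2 against DN1 (0.88, adjusted p = 0.0485) and in DN4 against DN1 (0.90, adjusted p = 0.0144).

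Between single fractions, 0 of the 30 genes passed in DN2 against DN1 (1.35% of all genes), DN3 against DN2 (2.45%), DN4 against DN3 (0.00451%), DN4 against DN1 (5.61%) and DN2 against the mean of the other fractions (1.7%). At an unadjusted p under 0.05 limma gave 2, 0, 1, 4 and 0 of the 30 in these comparisons. The shares of all genes at that unadjusted threshold are not given here, so nothing is read from these counts. In CLP against the mean of the 4 DN fractions, 1 of 30 passed, against 4.44% of all genes. That gene was Rrp12, at 6.87 ± 0.45 in CLP, against 7.81 ± 0.29 for DN1, 7.60 ± 0.26 for DN2, 7.51 ± 0.29 for DN3 and 7.37 ± 0.34 for DN4 (SD, n = 3 each). The contrast was -0.71 (SE 0.19, 95% interval -1.10 to -0.31, adjusted p = 0.0404). CLP replicate 1, at 6.35, was the lowest array, and without it the contrast was -0.45 with an adjusted p of 0.156. Leaving out any 1 of CLP replicate 2, DN1 replicates 1 and 2, DN2 replicates 2 and 3, DN3 replicates 2 and 3 or DN4 replicates 1 and 2 also lost the call, with adjusted p between 0.0535 and 0.0651. Without DN3 replicate 3, Utp20 (-0.49, adjusted p = 0.0363) and Ddx21 (-0.43, adjusted p = 0.0374) passed in this contrast. With the replicate number as a block, Utp20 passed in it too (-0.45, limma adjusted p = 0.0309).

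CLP had the lowest fraction mean for 14 of the 30 genes, and DN2 for 0, where 23.1% and 16.4% of all genes had their lowest mean. Without CLP replicate 1 the counts were 9 and 2, and leaving out any 1 lymphoma array gave 9 to 16 for CLP. The highest mean fell in CLP for 5 genes, DN1 for 8, DN2 for 7, DN3 for 8 and DN4 for 2, against 28.6%, 19.8%, 13.7%, 19% and 18.9% of all genes. These are orders of means, most of which lie within the spread of the arrays. The replicate SD of the 30 genes had a median of 0.24 for CLP, 0.21 for DN1, 0.10 for DN2, 0.25 for DN3, 0.14 for DN4 and 0.14 for LSK cells, so DN2 arrays agreed best and CLP and DN3 arrays least.

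**Figure D3:**
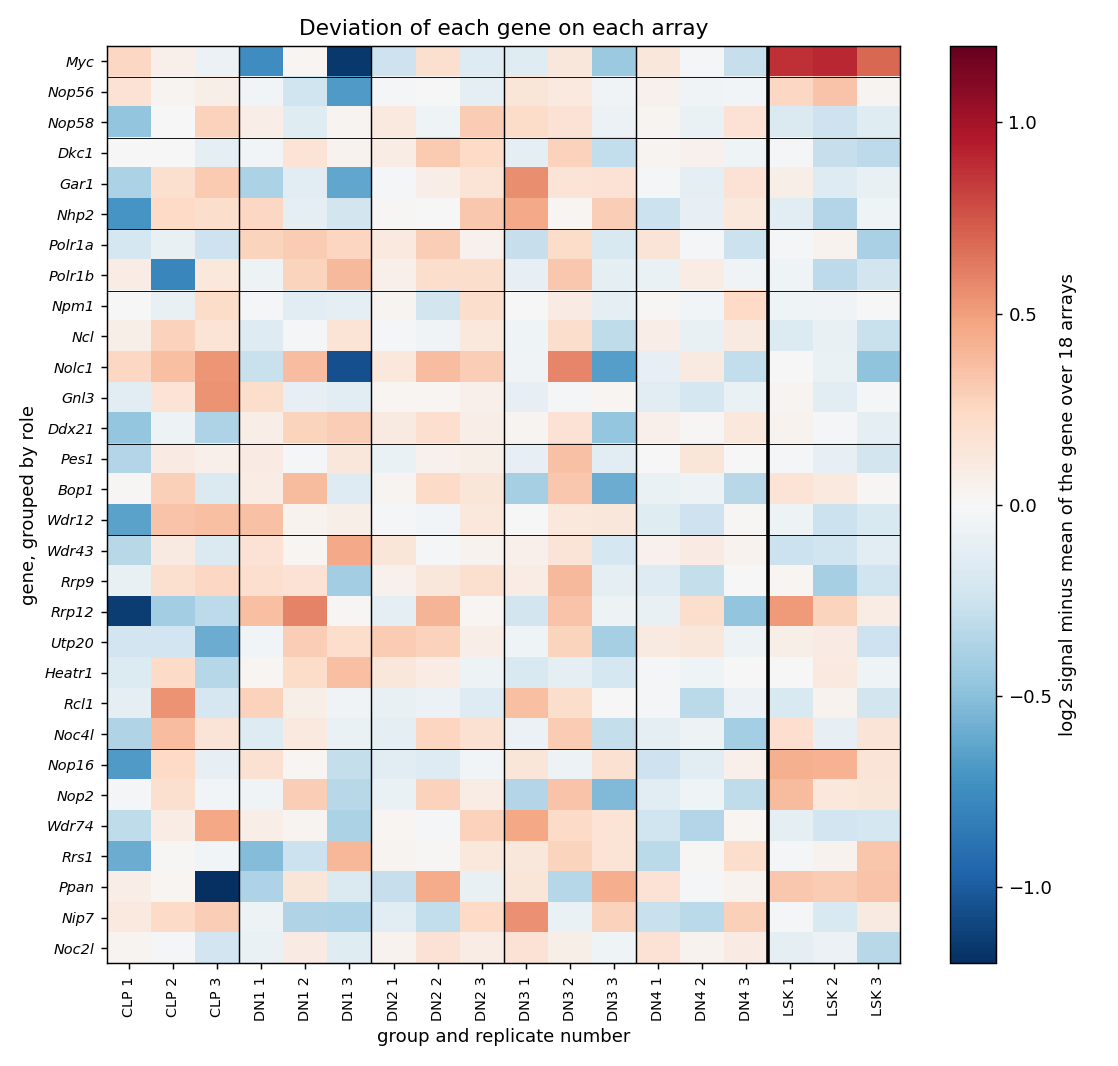
Deviation of each of the 30 genes (rows, grouped by role) from its own mean over the 18 arrays (columns, by group and replicate number, LSK at the right), in log2 units with colours ending at 1.2 on both sides. The LSK columns are red for Myc, CLP replicate 1 is blue for many genes, and DN3 replicate 2 is red where DN3 replicate 3 is blue.

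The arrays of 1 fraction could differ more from each other than the fractions did. The mean of the 30 genes was lowest on CLP replicate 1 (9.09) and highest on DN3 replicate 2 (9.47), and DN3 replicate 3 stood at 9.18. In DN3, Bop1 was 9.15, 9.88 and 8.96, Nop2 was 9.66, 10.35 and 9.48, and Nolc1 was 8.59, 9.22 and 7.98. Replicate 2 was the highest DN3 array for all 3 of these genes. LSK arrays had means of 9.36, 9.28 and 9.24, inside the range of the lymphoma arrays.

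Proliferation markers showed another pattern over the same arrays. They are genes of DNA replication and mitosis, and 10 of 12 measured passed the F test among fractions (83.3%, against 7.88% of all genes). Mcm5, a subunit of the replicative helicase, averaged 9.31 in DN1, against 10.68 for CLP, 10.45 for DN2, 10.61 for DN3 and 10.24 for DN4 (adjusted p = 0.00016), and Tyms, which makes thymidylate, averaged 9.004 in DN1, against 9.96 for CLP, 9.73 for DN2, 9.96 for DN3 and 9.52 for DN4 (adjusted p = 0.0013). In DN2 against DN1, 8 of the 12 rose and none fell, where 0.708% of all genes rose, while 0 of the 30 genes passed. The mean of the 12 markers was 9.05 to 9.13 on the DN1 arrays and 9.78 to 9.98 on the DN2 arrays, and the mean of the 30 genes was 9.18 to 9.38 and 9.30 to 9.40. Against LSK, 4 of 12 rose and none fell (33.3% called, against 29% of all genes, 13.1% higher), with Tyms at 0.85 (adjusted p = 0.00025), Rrm2 at 0.84, Pcna at 0.46 and Mcm2 at 0.75.

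**Figure D4:**
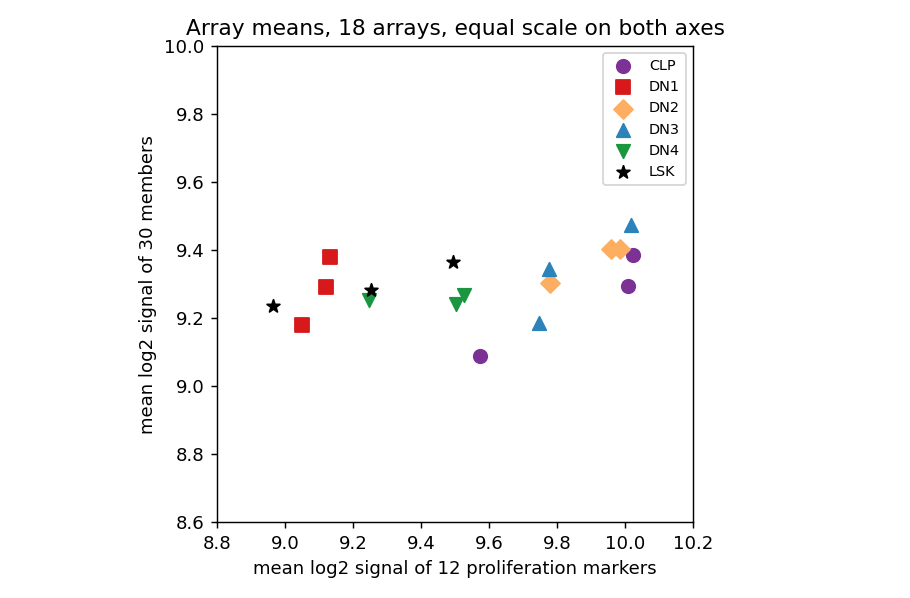
Mean log2 signal of the 30 genes (vertical axis) against that of 12 proliferation markers (horizontal axis) on each of the 18 arrays, drawn to the same scale, with 1 symbol per group. The markers run from 8.96 to 10.02 and the 30 genes from 9.09 to 9.47.

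Other genes of the same pathways, from written lists, placed the 30 genes in context. Among other small subunit factors, 2 of 37 measured passed between lymphoma and LSK (5.41%, against 29% of all genes): Mphosph10, a part of the U3 particle, fell by 0.45 (adjusted p = 0.016) and Emg1, a methyltransferase of the small subunit RNA, rose by 0.43 (0.024). Their median difference was -0.01. Among other large subunit factors, 12 of 40 passed (30%), 7 higher and 5 lower, with Rpf2 at 0.69 (adjusted p = 0.0078), Pak1ip1 at -0.56 (0.0081), Rrp1b at -0.49 (0.0091) and Ddx55 at 0.46 (0.0091). Rpf2 helps to bring the 5S particle into the large subunit, and Ddx55 is an RNA helicase of that subunit's assembly. Among fractions, 1 of 37 and 1 of 40 differed, against 7.88% of all genes. The helicase gene Ddx10 was at 7.47 ± 0.23 in CLP and 7.97 to 8.37 in the DN fractions (adjusted p = 0.0045). Nol9, an RNA kinase gene, was at 7.37 ± 0.22 in CLP and 7.88 to 8.06 in the DN fractions (0.0121).

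Of 12 genes for the assembly of snoRNPs, 5 passed between lymphoma and LSK (41.7%, against 29% of all genes), 4 higher and 1 lower (13.1% and 15.8% of all genes), and none among fractions (7.88% of all genes). Snu13, which binds the kink-turn of box C/D RNAs, rose by 0.77 (9.84 against 9.07 in LSK cells, adjusted p = 0.00074). The assembly factors Nufip1 and Rpap3 rose by 0.44 (adjusted p = 0.0067) and 0.46 (0.0076), and Pih1d1, which works with Rpap3, fell by 0.33 (0.044). Of 10 measured genes of the RNA polymerase I machinery, 3 passed (30%): Taf1b and Taf1a, subunits of the promoter selectivity factor SL1, rose by 0.56 (adjusted p = 0.0021) and 0.43 (0.039), and the subunit Polr1c, shared with RNA polymerase III, fell by 0.40 (0.030). Of 18 measured ribosomal protein genes, 5 passed (27.8%), 3 higher and 2 lower, with Rpl3 at 0.90, Rplp0 at 0.53, Rpl5 at 0.56 and Rpl14 at -0.35. Ribosomal protein genes have many near-identical copies in the genome, so their probe set values are uncertain.

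Of 13 genes that code for MYC partners, relatives and regulators, 5 passed between lymphoma and LSK (38.5%, against 29% of all genes). Of these, 1 was higher and 4 were lower, as were 13.1% and 15.8% of all genes. Mycn, a MYC family gene, was at 4.08 to 4.78 on the lymphoma arrays, all 15 below the background gauge of their array, and at 6.68, 6.65 and 6.58 in LSK cells (adjusted p = 1.7e-07). With the lymphoma arrays set to that gauge, it was at least 2.11-fold lower in the lymphoma. Of the MXD genes, whose proteins compete with MYC for MAX, Mxd3 rose by 0.60 (adjusted p = 0.0169), while Mxd1 fell by 0.48 (0.0194) and Mxi1 by 0.38 (0.0259). Mxd3 also differed among fractions (adjusted p = 0.0224), with 7.39 for CLP, 7.35 for DN2 and 7.37 for DN3 and 6.89 for both DN1 and DN4.

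Of 22 measured MYC targets outside the ribosome, 9 passed between lymphoma and LSK (40.9%, against 29% of all genes). Of these, 6 were higher and 3 lower, as were 13.1% and 15.8% of all genes. Ccnd2, which encodes cyclin D2, fell by 3.77 (7.19 against 10.96 in LSK cells, adjusted p = 1.3e-08), and the serine pathway gene Shmt2 fell by 1.06. The transferrin receptor gene Tfrc rose by 0.75 and the nucleoside diphosphate kinase gene Nme1 by 1.03. Among fractions 3 of 22 differed, against 7.88% of all genes. Ccnd2 was at 8.58 in DN3, 7.88 in CLP and 7.81 in DN4, against 5.93 in DN1 and 5.77 in DN2 (adjusted p = 1.3e-09). Cdk4 was at 10.32 in DN1 and 10.82 to 11.16 in the others (adjusted p = 0.018).

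**Figure D5:**
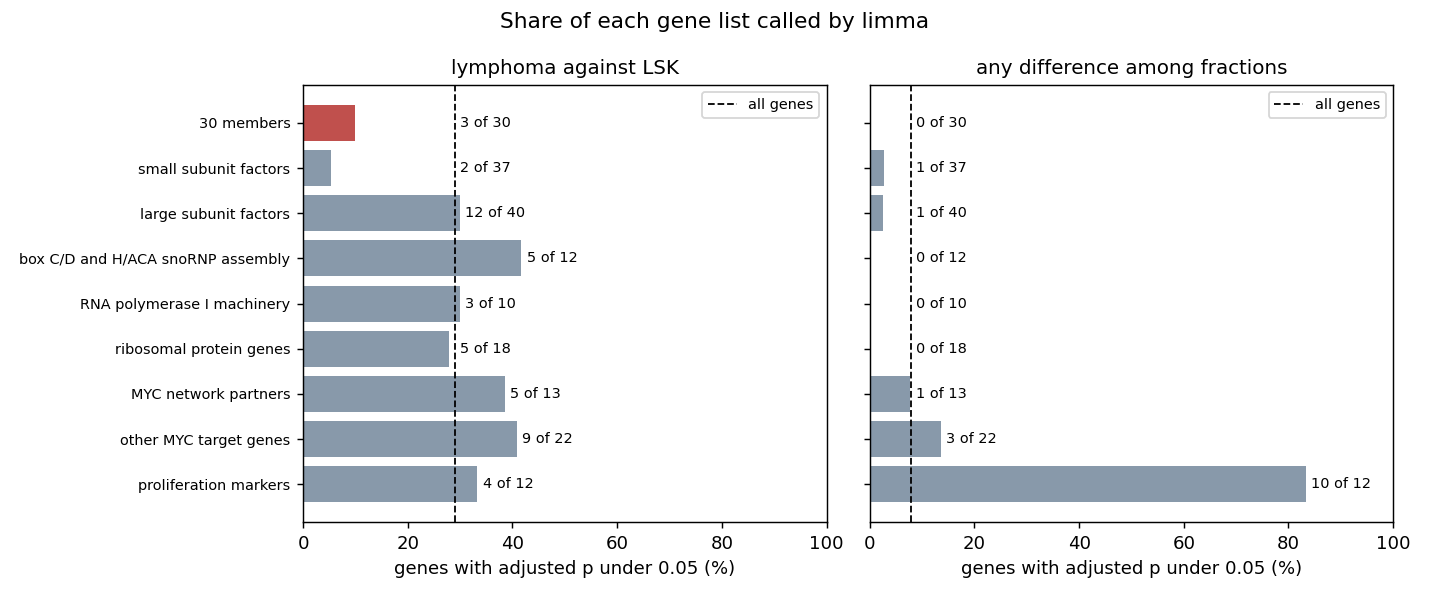
Share of the genes of each list that passed limma's adjusted p of 0.05 (horizontal axis, percent), for the lymphoma against LSK (left panel) and for any difference among the 5 fractions (right panel), with the share of all genes as a dashed line. The 30 genes stand at 10% and 0%, against 29% and 7.88% of all genes, and the proliferation markers at 33.3% and 83.3%.

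Marker lists of other cell types moved with the lymphoma and LSK groups. In bulk samples, such RNA from other cells and the same RNA made by the sorted cells themselves cannot be told apart. The mean of 9 granulocyte markers was 4.67 to 5.67 on the lymphoma arrays and 7.05 to 8.66 on the LSK arrays, with 7 of 9 lower in the lymphoma (15.8% of all genes were lower), and the mean of 6 erythroid and megakaryocyte markers was 4.84 to 5.16 and 7.37 to 7.59, with 5 of 6 lower. Of 5 dendritic cell markers 2 were lower, with means of 4.95 to 5.25 and 6.25 to 6.42, but 1 of them, Flt3, is also on the LSK list and was at 4.51 to 5.35 in the lymphoma and 8.68 to 9.45 in LSK cells. Without Flt3 the means were 5.04 to 5.29 and 5.64 to 5.70. Of 8 macrophage markers 3 were higher and 4 lower, of 7 B and plasma cell markers 1 was higher and 3 lower, and of 8 stroma and thymic epithelium markers 1 was lower, where 13.1% of all genes were higher and 15.8% lower. Their part in the lower Myc, Nop16 and Ppan signals was not tested. Among the fractions, B and plasma cell markers were highest in DN1, at 5.87 to 6.10, against 5.10 to 5.33 in the other fractions, and DN1 was also the fraction with the lowest Myc mean. That gap came from 1 gene, Jchain, which encodes the joining chain of antibodies and was at 8.40 to 8.77 in DN1, against 3.84 to 4.96 in the other fractions. Without Jchain the mean of the list was 5.41 to 5.65 in DN1, against 5.24 to 5.53 in the other fractions, which overlap.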

How the data were processed

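RNA of 18 sorted samples was measured on Affymetrix arrays after WT Pico amplification, per the labels' protocols. The authors deposited log2 values, 1 per probe set, and the submitters' processing notes name oligo and RMA. Versions and annotation are not given in the sources used here, and the number of arrays limits the precision. The table holds 41345 probe sets: 23521 with 1 gene symbol, 1814 with several and 16010 with none, and 0 sample columns were left unused. The brightest single-symbol probe set (mean over 18 arrays) stood for each of 22180 genes. From these values, limma 3.58.1 in R 4.3.3 (lmFit with eBayes, two-sided) gave all p values, adjusted by Benjamini-Hochberg over every gene and called under 0.05. It was tested on simulated data in which arrays were independent and each gene had 1 SD. That test does not cover arrays that deviate together, as same-numbered lymphoma arrays did. For lymphoma against LSK, the 5 fraction arrays that share a replicate number were averaged, which gave 3 values against 3. A fraction against LSK used 3 arrays against 3, and differences among fractions 1 model of 15 arrays. The genes and lists were chosen with earlier results of these data known. All listed genes of the set are named, and for each other list up to 4 called genes of smallest p against LSK and 2 among fractions. Alternatives changed the filter, normalization, probe set choice, prior, replicate block, model and arrays included.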

Additional observations from a re-analysis of the deposited data

Results flagged for a closer look

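Rrp12 differed between lymphoma fractions in the contrast of CLP with the mean of DN1 to DN4, by -0.71 on the log2 scale, in a test of that difference across all genes. Another probe set of Nop56 than the brightest one, 17376272, was 0.69 higher in the lymphoma than in LSK cells (6.72 against 6.03, adjusted p = 0.0222 over all 41345 probe sets, limma), a signal outside the values used for the gene. The brightest probe set of Nop56 differed by -0.25 and was not called, a further one, 17376274, by -0.48 (adjusted p = 0.0493), and the 1 that carries the names Snord57 and Nop56 by 0.39 (not called). The probe sets of Nop56 therefore disagree in sign, but 17376272 lay near the background gauge, at 5.74 to 6.33 in LSK cells. Groups hold 3 arrays each, too few to look for single arrays that stand apart by a rule.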

How the results depend on the processing

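Myc kept its direction and its call between lymphoma and LSK in all 14 other settings, and no result changed sign past the threshold. Counts of called genes of the set that moved by over 1.5 times were these. Without the CLP arrays, 1 gene of the set was higher in the lymphoma than in LSK, and 1 differed among fractions. In DN1 against LSK there were 3 with only genes above the array median, 3 after quantile normalization and 3 with all 18 arrays in 1 model. With all 18 arrays in 1 model there were 2 in DN2, 1 in DN3 and 1 in DN4 against LSK, and 6140 genes in all were called in CLP against LSK. After quantile normalization, 0 were called in CLP against the mean of the DN fractions. The replicate numbers are not said to pair the samples. Same-numbered lymphoma arrays deviated together (r over 0.1) in 21 of 30 pairs and differently numbered ones in 6 of 60. For 11 of 15 lymphoma arrays, the mean correlation with arrays of other fractions was highest for those of the same number. With the replicate number as a block, 2 genes of the set were called in DN1 against LSK, 2 in DN2 against LSK, 1 (Rrp12, adjusted p = 0.0241) among fractions and 2 in CLP against the mean of the DN fractions. Tested as a term of its own, chosen after seeing the data, the replicate number had 3 called genes in all and 0 of the set, and 26.7% of the set had an unadjusted p under 0.05, against 13.8% of all genes.

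Leaving out 1 replicate at a time gave 1 to 6 called genes of the set in lymphoma against LSK, 0 to 1 higher and 1 to 5 lower. The genes called in all numbered 4634 to 6825 there. Against LSK it gave 0 to 4 in CLP (2559 to 4598 genes in all), 1 to 2 in DN1 (3460 to 4270) and 1 to 5 in DN2 (4572 to 5383). It gave 1 to 5 in DN3 (4154 to 5388) and 1 to 2 in DN4 (4766 to 5591). Among fractions it gave 0 to 1 in the F test, 0 to 1 in DN2 against DN1 (144 to 264 genes in all), 0 to 1 in DN4 against DN1, 0 to 2 in CLP against the mean of the DN fractions (609 to 1939 in all), 1 to 2 genes in all in DN4 against DN3, and 213 to 466 in DN2 against the mean of the others. Over single genes of the set, 44 results came past the threshold and 51 fell short of it, and 5485 stayed on their side. Most of those that stayed were not called in the main fit, so their number does not measure how stable the calls are. Fits with fewer arrays have less power by construction; beyond that the cause was not tested. Signals of the set were above the background gauge on all arrays, and the 3 arrays a group limit the precision.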
